A study of Rattus norvegicus with 6 samples.

Results

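The genes described here are 8 core genes of the PI3K-AKT-mTOR pathway, Akt1, Akt2, Pik3ca, Pik3cb, Pik3r1, Mtor, Rictor and Tsc2. They were taken by gene symbol from a count table of 22574 symbols, and all 8 were listed and had enough counts to be tested. The table holds RNA sequencing counts of rat aortic vascular smooth muscle cells (RASMCs), primary cells grown from the aortas of male Sprague-Dawley rats aged 8 weeks. In the CitH3+dsDNA group, 3 libraries came from cells challenged with citrullinated histone H3 at 0.03 μM together with double-stranded DNA at 300 ng/ml, components of the extracellular traps that activated cells release. In the Control group, 3 libraries came from cells that received bovine serum albumin. Per the study's reporting summary, wells of cells from 1 rat served as replicates in its culture experiments, so p-values measure the spread between wells and library preparations, not between animals. The libraries held 17997198, 17573905 and 18009324 counts in the CitH3+dsDNA group and 18031326, 18742395 and 18594365 counts in controls. No pair of libraries differed by as little as sampling noise, with a chi-square of at least 3.31 per gene (Control replicate 1 against 2).

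A feature of the deposited counts bears on every call and p-value below. Between genes that edgeR called (adjusted p under 0.05) and the other genes tested, the counts differed in their digits, most of all in the control libraries. There, 34.6% of the 3-digit counts of called genes (143 of 413) held 2 equal digits side by side, as in 330. In genes not called, the share was 19.0%. For 4-digit counts, as in 1200, the shares were 41.2% in called genes (77 of 187) and 29.6% in the others. In the CitH3+dsDNA libraries these shares were 25.3% against 19.4% for 3 digits and 29.0% against 29.1% for 4 digits. The variance over the 3 control counts was under 0.05 times their mean in 11.9% of called genes and in 2.26% of the others, and over the 3 CitH3+dsDNA counts in 9.03% and 2.59%. A small spread within a group itself favours a call. Called genes can hold more such values for that reason, and how much this adds was not tested. The comparison of digits was chosen after the counts were seen, and the cause was not tested. The fits take the counts as deposited, so the p-values given here, that of Akt1 included, do not allow for it. The levels, fold changes and ratios given below rest on the same counts, which were not checked against raw reads.

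PI3K is a lipid kinase that, downstream of growth factor receptors, makes a membrane lipid to which the AKT kinases bind and on which they are switched on. AKT phosphorylates, among other substrates, the TSC complex and so releases mTOR complex 1, which promotes protein synthesis and growth, while mTOR complex 2 phosphorylates AKT itself. In vascular smooth muscle, AKT signaling is known for its part in survival, growth and the balance between contractile and proliferative states. The pathway is controlled mainly by phosphorylation, which transcript counts do not measure.

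The cells carried the transcripts that define smooth muscle. The 10 smooth muscle markers examined, of which Acta2 (smooth muscle actin) was the most abundant, summed to between 10232 and 11013 CPM (counts scaled to a common library size, defined in the processing summary) in the control libraries and to between 7551 and 8062 CPM in the CitH3+dsDNA libraries. Of these 10 genes, 4 fell (log2 fold changes of -0.69 in Acta2, -0.40 in Tagln, -1.57 in Cnn1 and -0.21 in Smtn), and Myocd, which encodes a coactivator of contractile genes, rose (1.09), where 0.262% of all genes tested were called lower and 1.94% higher by edgeR. The other 5 were not called, with log2 fold changes of 0.16 in Cald1 (edgeR adjusted p = 0.102, groups not overlapping), 0.06 in Myh11, -0.06 in Lmod1 (groups not overlapping) and -0.06 in Tpm2 and Des. In all, 7 of the 10 had groups that did not overlap, against 19.1% of all genes tested. The call of Smtn (adjusted p = 0.0386 in edgeR) was lost in 8 of 15 alternatives, among them the replicate block (0.0981) and the fits without CitH3+dsDNA replicate 1 (0.176), 2 (0.107) or 3 (0.106) or Control replicate 1 (0.115) or 2 (0.202), with a range of 0.0176 to 0.202 over all alternatives. The calls of the other 4 were kept in all 15, but no alternative changes the counts themselves. Equal digits side by side stood in each control count of Cnn1 (8766, 6566 and 7555). They also stood in control counts of Acta2 (89777 and 98777, but not 87659) and Myocd (330, but not 320 and 343). The control counts of Tagln (47689, 51704 and 48468) held none. Counts of 5 digits were not part of the comparison given above. Of the markers of other cells of the artery, those of endothelial cells and adventitial fibroblasts were scarce, and those of macrophages and leukocytes were mixed. The 6 endothelial markers summed to at most 7.49 CPM in any library, led by Cdh5, with at most 1 count in any library for Kdr and Emcn. The 6 adventitial fibroblast markers summed to at most 4.93 CPM, led by Pi16, and Cd34 had no count. The 8 macrophage and leukocyte markers summed to between 72.2 and 76.5 CPM, mostly from Cd14 (50.7 to 53.6 CPM) and Csf1r (16.8 to 20.6 CPM), while the leukocyte genes Ptprc and Itgam had at most 1 count in any library. Cd68, the macrophage marker that the paper follows, had between 10 and 19 counts in a library. Its log2 fold change was 0.19 (edgeR adjusted p = 0.849). None of the tested markers of these other cell types (3 of 6, 2 of 6 and 5 of 8) was called by edgeR, and 0 of them had an unadjusted p-value under 0.05. Of all genes tested, 2.2% were called and 13.9% had such a p-value. The lower contractile genes go along with the changes described here, and their part in them was not tested. In bulk libraries, fewer cells of a type and less RNA per cell cannot be told apart.

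Of the 8 core genes, Akt1 fell and Rictor rose, and the other 6 did not pass the test. The call of Akt1 was kept in all 15 alternatives, whereas Rictor lost its call in 7 of them, as given below with its values. A gene was called where its Benjamini-Hochberg adjusted p-value from the quasi-likelihood test of edgeR was under 0.05. Over all 12591 genes with enough counts 2.2% were called, 1.94% as higher and 0.262% as lower in the CitH3+dsDNA group. The 244 higher calls became 147 without CitH3+dsDNA replicate 1 and 154 without Control replicate 1. The 33 lower calls became 17 without CitH3+dsDNA replicate 1 and 57 without Control replicate 3. Both shares thus depend on the libraries used. The 3 CitH3+dsDNA libraries lay wholly on one side of the 3 controls for 4 of the 8 genes (Akt1, Pik3ca, Pik3r1 and Rictor), against 19.1% of all genes tested. An unadjusted p-value under 0.05 in edgeR was found for the same 4 and for 13.9% of all genes tested. The median log2 fold change of the 8 genes was 0.09, and that of all genes tested was -0.00130. Log2 fold changes throughout are CitH3+dsDNA over Control, so a negative value is lower in the challenged cells, and each ± beside one is its standard error.

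Akt1 and Akt2 differed from each other. Akt1, a widely expressed AKT gene tied to growth and survival, had 170.2, 208 and 200.4 CPM in the CitH3+dsDNA libraries and 536, 507 and 498 CPM in the controls. The groups lay far apart, and CitH3+dsDNA replicate 1 was the lowest library of all. Its mean was 193 ± 20.2 CPM (SD, n = 3) in challenged cells and 513 ± 19.9 CPM (SD, n = 3) in controls, a level 37.6% of that in controls. This is a log2 fold change of -1.41 ± 0.06, with a 95% interval from -1.55 to -1.28 and an edgeR adjusted p of 5.96e-09, lower in each of the 3 challenged libraries. Among the 33 genes called lower in the whole table, Akt1 had rank 3 by adjusted p-value in edgeR, rank 7 by mean CPM and rank 13 by the size of the fall. Over all alternatives, its adjusted p-value lay between 2.30e-50 in DESeq2 and 0.000227 in edgeR with robust dispersions. In the latter fit Bcl2l13, Bcl2l2 and Tagln, also lower, had smaller values (1.64e-11, 2.11e-09 and 7.02e-08), so rank 3 did not hold there.

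Akt2, which is known above all for its role in insulin-stimulated glucose uptake, had 229, 221 and 231 CPM in the CitH3+dsDNA libraries and 226, 227 and 222 CPM in the controls. The groups overlapped. With a log2 fold change of 0.01 ± 0.03 it was not called (edgeR adjusted p = 0.906), and its 95% interval allows a change between -4.15% and 6.21%.

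The isoform difference was then measured within each library as a log2 ratio of counts, which needs no scaling between libraries. The log2 ratio of Akt1 to Akt2 counts was -0.43, -0.08 and -0.21 in the CitH3+dsDNA libraries and 1.24, 1.16 and 1.17 in the controls. Akt1 thus had fewer counts than Akt2 in each challenged library and more in each control library, although counts of different genes also depend on transcript length and only the shift between groups can be read. That shift was -1.43 ± 0.10 (SE). The groups did not overlap in this ratio, and the exact permutation test over libraries, two-sided, gave an unadjusted p of 0.1, the smallest that 3 libraries against 3 can give, so this test cannot reach 0.05.

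The genes next to Akt1 in the GRCr8 assembly do not overlap it there and were not called: Siva1 was at 0.02 ± 0.06 and Zbtb42 at -0.08 ± 0.09 on the log2 scale. Akt2 shares 6234 bases there with C1h19orf47, on the same strand, and Mtor shares 5186 bases with Angptl7, and neither neighbour was tested. Tsc2 shares 4 bases with Pkd1, which was not called. How reads that fit several AKT genes were counted is not given in the sources used here.

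**Figure D1:**
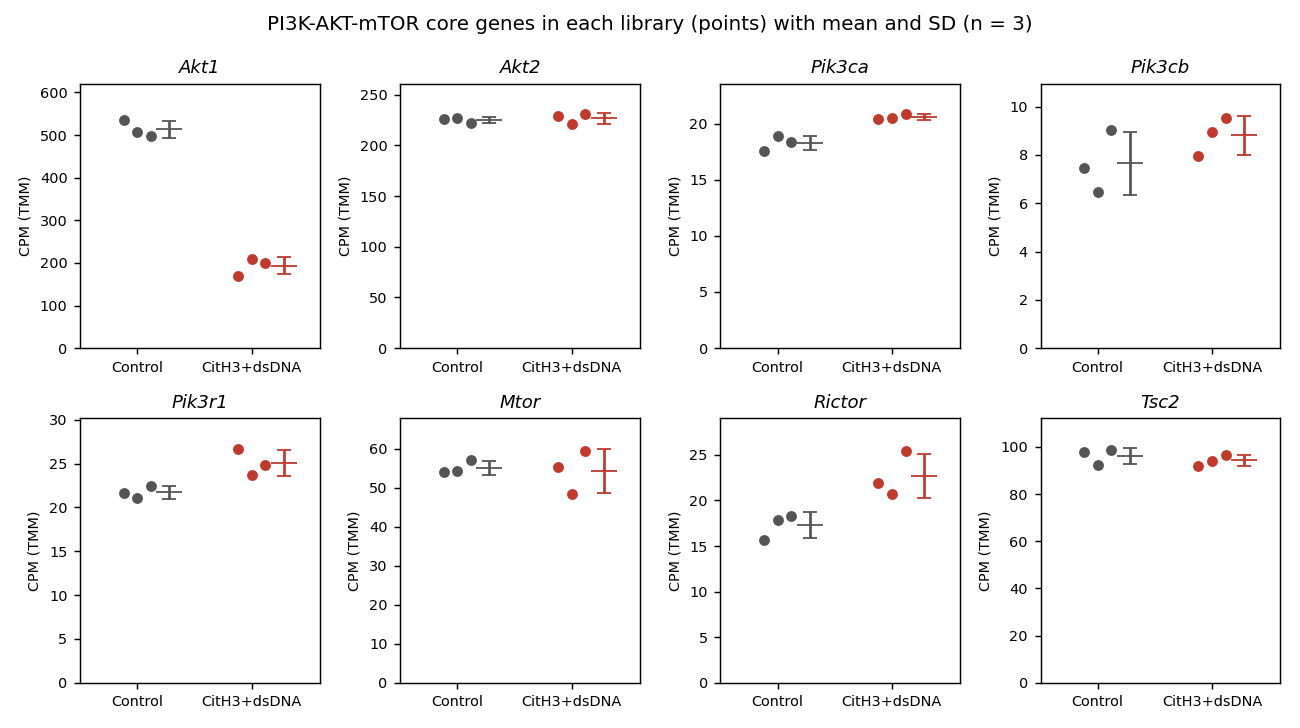
CPM of the 8 core genes (vertical axes, from 0, scaled for each gene) in each of the 3 Control and 3 CitH3+dsDNA libraries (points), with the mean and SD of each group (bars). Akt1 lay between 170.2 and 208 CPM in challenged cells and between 498 and 536 CPM in controls, whereas the points of Akt2, Pik3cb, Mtor and Tsc2 overlapped between groups.

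The PI3K genes, which act upstream of AKT, did not pass the test. Pik3ca encodes the catalytic subunit p110α of class I PI3K. It had 20.4, 20.5 and 20.9 CPM in the CitH3+dsDNA libraries and 17.6, 18.9 and 18.4 CPM in controls, so that the groups did not overlap. The difference of 0.17 ± 0.07 on the log2 scale did not pass the test (edgeR adjusted p = 0.267, unadjusted 0.0242), with a 95% interval from 1.86% to 24.8%.

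Pik3r1 encodes p85α, the regulatory subunit that ties the catalytic subunit to activated receptors. It had 26.6, 23.7 and 24.8 CPM in challenged cells and 21.7, 21.0 and 22.4 CPM in controls, again without overlap. Its value of 0.21 ± 0.07 on the log2 scale did not pass either (edgeR adjusted p = 0.192, unadjusted 0.0113). Pik3cb, the gene of the catalytic subunit p110β, had the lowest counts of the 8 genes, from 120 to 173 in a library. It had 7.94, 8.97 and 9.53 CPM after CitH3+dsDNA and 7.45, 6.47 and 9.05 CPM in controls, where Control replicate 3 lay among the challenged libraries. On the log2 scale it was at 0.20 ± 0.14 (edgeR adjusted p = 0.558), and the 95% interval, from -6.46% to 41.6%, is the widest of the 8. Its log2 fold change was 0.09 without Control replicate 2 and 0.34 without Control replicate 3, and it was not called in either fit.

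The genes around mTOR gave 1 call. Mtor encodes the kinase shared by both mTOR complexes. It had 55.4, 48.3 and 59.4 CPM in the CitH3+dsDNA libraries and 54.0, 54.3 and 57.2 CPM in controls. The challenged libraries held both the lowest and the highest value, with a log2 fold change of -0.02 ± 0.07 (edgeR adjusted p = 0.931, 95% interval -10.7% to 8.93%). The sign of this value turned without CitH3+dsDNA replicate 2 (0.06) or Control replicate 3 (0.00708), and the value was -0.09 without CitH3+dsDNA replicate 3, -0.04 without CitH3+dsDNA replicate 1 or Control replicate 1 and -0.03 without Control replicate 2. Tsc2 encodes tuberin, which within the TSC complex restrains mTOR complex 1 and is a substrate of AKT. It had 91.8, 94.2 and 96.7 CPM in challenged cells and 97.8, 92.3 and 98.5 CPM in controls. These groups overlapped too, at -0.03 ± 0.04 on the log2 scale (edgeR adjusted p = 0.813, 95% interval -8.20% to 4.51%). With each library left out, the value of Tsc2 was -0.01, -0.03 and -0.05 without CitH3+dsDNA replicate 1, 2 and 3 and -0.02, -0.06 and -0.01 without Control replicate 1, 2 and 3, and it was not called in these fits.

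Rictor, the gene of the scaffold protein that defines mTOR complex 2, the complex that phosphorylates AKT, had 21.9, 20.7 and 25.4 CPM in the CitH3+dsDNA libraries and 15.6, 17.9 and 18.3 CPM in controls. The groups did not overlap, and CitH3+dsDNA replicate 3 was the highest library. Rictor rose by 0.39 ± 0.09 on the log2 scale (95% interval 0.19 to 0.59), and its edgeR adjusted p of 0.0453 lay close to the threshold. The call of Rictor was lost in 7 of 15 alternatives, namely upper-quartile scaling (edgeR adjusted p = 0.0657), limma-voom (0.0557), the replicate block (0.0519) and the edgeR fits without CitH3+dsDNA replicate 1 (0.132) or 3 (0.182) or Control replicate 1 (0.201) or 2 (0.101); the adjusted p-value lay between 0.0110 and 0.201 over all alternatives.

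The core genes were then set among the rest of their pathway, 100 genes in 12 lists by role that include the 8. Of the 93 genes tested, 4 rose and 1 fell, so that 5.38% were called, against 2.2% of all genes tested (1.94% higher and 0.262% lower). The lists were chosen with earlier results of these data known, so their shares are a description only. Without the 8 core genes, 3 of 85 (3.53%) were called, all higher, 15.3% had groups that did not overlap and 14.1% had an unadjusted p-value under 0.05 in edgeR, against 13.9% of all genes. Among the 93, 17 (18.3%) had groups that did not overlap, close to the 19.1% of all genes. The median log2 fold change of the 93 was 0.04. The other 7 of the 100, Pik3cg, Pik3c2g, Prr5l, RragB, Ddit4l, Pdk4 and Klf15, had too few counts to be tested. Besides Akt1 and Rictor, the called genes were Lamtor1, Bcl2l11 and Bcl6, all higher. The 5 calls became 3 with the replicate block and without CitH3+dsDNA replicate 1, CitH3+dsDNA replicate 3 or Control replicate 2, where Rictor and Bcl6 lost theirs.

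**Figure D2:**
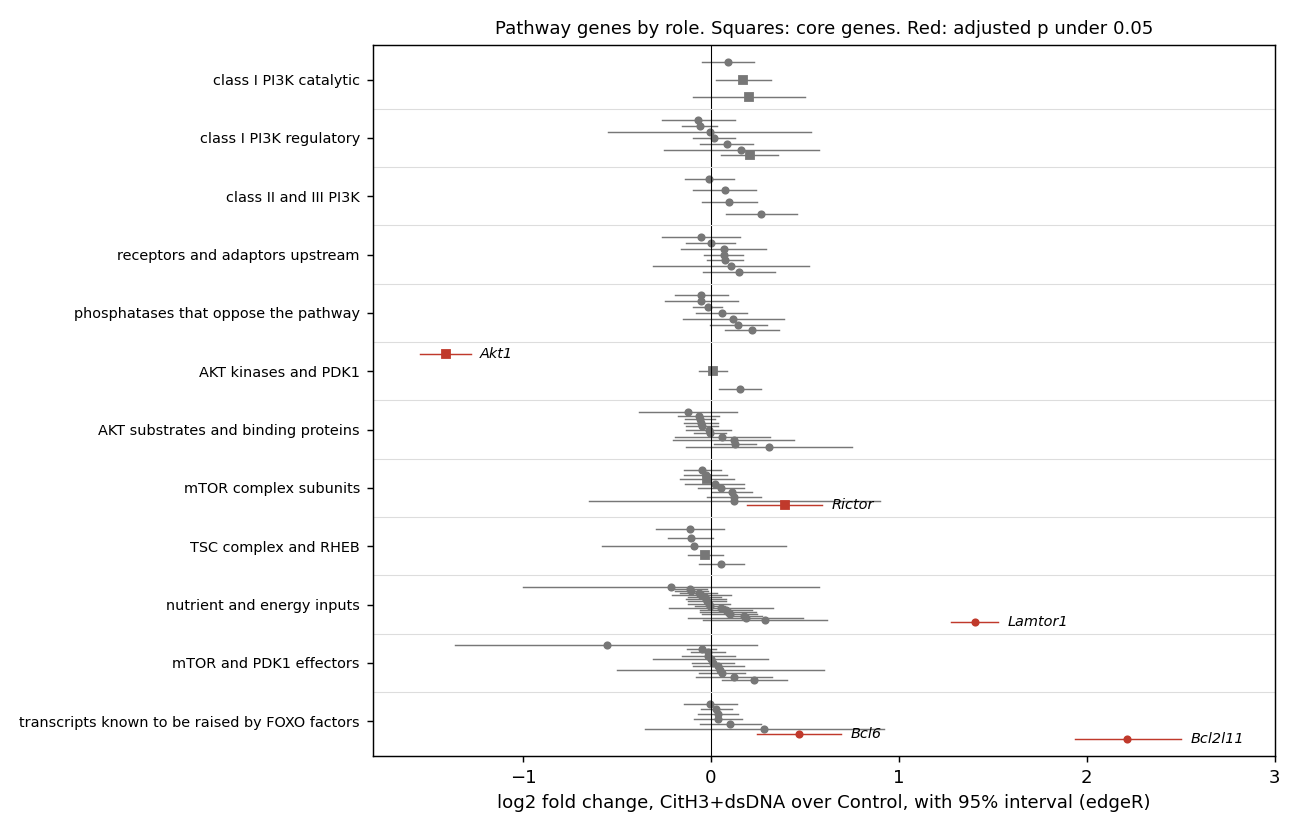
Log2 fold change of CitH3+dsDNA over Control (horizontal axis) with its 95% interval from edgeR for the 93 tested genes of the 12 pathway lists (rows); squares are the 8 core genes and red marks the genes with an adjusted p under 0.05. Akt1 (-1.41) is the red point left of 0, Rictor, Bcl6, Lamtor1 and Bcl2l11 are those to its right, and the intervals of most other genes include 0.

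Of the phosphatases that oppose the pathway, 7 are reported here, and none of these was called by edgeR, DESeq2 or limma-voom. Of all genes tested, edgeR called 2.2%. In edgeR, 1 of the 7 (14.3%) had an unadjusted p-value under 0.05, against 13.9% of all genes tested. That gene was Inpp4b, which acts on a product of the PI3K lipid, had groups that did not overlap and was at 0.22 ± 0.07 on the log2 scale (edgeR adjusted p = 0.138), the highest value of the 7, and Inpp5k had the lowest, -0.05.

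Upstream of AKT, none of the other PI3K genes or receptor genes was called by edgeR, DESeq2 or limma-voom, where edgeR called 2.2% of all genes tested. Pik3cd had the lowest log2 fold change of the class I catalytic genes, 0.09, and Pik3cg, a gene typical of leukocytes, had at most 1 count in any library and was not tested. Over the 7 regulatory genes the log2 fold change ran from -0.07 in Pik3r3, whose CitH3+dsDNA counts (267, 268 and 266) were consecutive, to 0.21 in Pik3r1. Over the 4 tested class II and III genes it ran from -0.01 in Pik3c2b to 0.27 in Pik3c2a, whose edgeR adjusted p was 0.174. Over the 7 genes of receptors and adaptors, among them those of the insulin and IGF1 receptors, it ran from -0.05 in Gab1 to 0.15 in Irs1, and 0 of the 7 had groups that did not overlap or an unadjusted p-value under 0.05, against 19.1% and 13.9% of all genes. Pdpk1, the gene of the kinase PDK1 that activates AKT, was at 0.15 ± 0.05 on the log2 scale (edgeR adjusted p = 0.178) and had groups that did not overlap.

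None of the 11 genes of AKT substrates and binding proteins was called by edgeR, DESeq2 or limma-voom, where edgeR called 2.2% of all genes tested. In edgeR, 1 of the 11 (9.09%) had an unadjusted p-value under 0.05, against 13.9% of all genes tested. That gene was Gsk3b, which encodes a kinase that AKT inhibits and was at 0.13 ± 0.05 on the log2 scale (edgeR adjusted p = 0.276). Foxo1 and Foxo3 encode transcription factors that AKT keeps out of the nucleus, and had log2 fold changes of 0.31 ± 0.20 and 0.06 ± 0.12. Foxo1 had between 45 and 66 counts in a library and a 95% interval from -0.13 to 0.75. Tbc1d4, an AKT substrate in glucose transport, had the lowest value of the list at -0.12.

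Among the transcripts that FOXO factors are known to raise, 2 of 8 tested were called, both higher, where 1.94% of all genes tested were called higher. This list, too, was chosen with earlier results of these data known, so its share is a description. Whether FOXO factors or the fall of Akt1 had a part in it was not tested. Bcl2l11, which encodes the pro-apoptotic protein BIM, had 15.5, 14.2 and 12.2 CPM in challenged cells and 3.14, 2.96 and 2.91 CPM in controls. The groups lay far apart, and Bcl2l11 rose by 2.22 ± 0.13 on the log2 scale (edgeR adjusted p = 1.21e-07). Its control counts of 56, 55 and 54 were consecutive whole numbers with a variance 0.0182 times their mean, less than counting noise gives on average. The p-value of Bcl2l11 is to be read with that caution. Bcl6, the gene of a transcriptional repressor, had 18.8, 22.5 and 20.2 CPM against 16.6, 15.2 and 12.6 CPM, without overlap, and rose by 0.47 ± 0.10 on the log2 scale (edgeR adjusted p = 0.0334). The call of Bcl6 was lost in 6 of 15 alternatives, namely the replicate block (edgeR adjusted p = 0.0613) and the fits without CitH3+dsDNA replicate 1, 2 or 3 (0.0616, 0.117 and 0.0998) or Control replicate 2 or 3 (0.0939 and 0.0702), and its adjusted p-value lay between 0.00634 and 0.117. The other 6, among them Ccng2, Cdkn1b, Cited2 and the muscle ubiquitin ligase genes Fbxo32 and Trim63, were not called and had log2 fold changes from -0.00271 (Gadd45a) to 0.28 (Fbxo32).

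The other subunits of the mTOR complexes were not called, where edgeR called 2.2% of all genes tested. Rptor, which defines mTOR complex 1 as Rictor defines mTOR complex 2, was at -0.04 ± 0.04 on the log2 scale (edgeR adjusted p = 0.707). Mlst8, a subunit of both complexes, was at 0.05 ± 0.06, and Deptor, an inhibitor of both and chosen after its values were seen, was at 0.11 ± 0.05 (edgeR adjusted p = 0.335). In the TSC list, Tsc1, the partner of Tsc2, was at 0.06, Rheb, the GTPase that activates mTOR complex 1, was at -0.11 ± 0.05 (edgeR adjusted p = 0.419), and Tbc1d7, the third subunit of the TSC complex, was lowest at -0.11.

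Of the 18 tested genes that bring nutrient and energy signals to mTOR, 1 was called (5.56%), against 2.2% of all genes tested. Groups did not overlap in 4 of the 18 (22.2%), against 19.1% of all genes. The called gene was Lamtor1. It encodes the protein that anchors the Ragulator complex, and with it mTOR complex 1, to the lysosome. Lamtor1 had 151, 169 and 157 CPM after CitH3+dsDNA and 56.0, 64.7 and 59.4 CPM in controls (counts of 1000, 1200 and 1102), far apart, and rose 2.65-fold (log2 fold change 1.40 ± 0.06, edgeR adjusted p = 3.41e-09). Each of these control counts holds equal digits side by side, and the p-value of Lamtor1 does not allow for that. The 4 genes of the other Ragulator subunits were not called, with log2 fold changes of -0.06 (Lamtor2), -0.10 (Lamtor3), -0.03 (Lamtor4) and -0.11 (Lamtor5), and the groups of Lamtor3 and Lamtor5 did not overlap. The lowest of the list was Rragd at -0.21, with at most 21 counts in a library. Sesn3, the gene of a stress-induced sestrin, chosen for mention after its values were seen, was at 0.18 ± 0.04 with an edgeR adjusted p of 0.0515, just over the threshold, and was called in 7 of 15 alternatives.

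None of the 11 genes of effectors below mTOR and PDK1 was called by edgeR, DESeq2 or limma-voom, where edgeR called 2.2% of all genes tested. Groups did not overlap in 2 of the 11 (18.2%), against 19.1% of all genes. An unadjusted p-value under 0.05 in edgeR was found for 1 gene (9.09%), against 13.9% of all genes. That was Rps6kb1, the gene of the S6 kinase that mTOR complex 1 activates, which had the highest value of the list, 0.23 ± 0.08 on the log2 scale (edgeR adjusted p = 0.207). Eif4ebp1, which encodes the translation repressor that mTOR complex 1 inactivates, was at -0.05 ± 0.04. Rps6, the gene of the ribosomal protein that S6 kinase phosphorylates, had between 7 and 25 counts in a library, few for a gene that every cell uses and one with near-identical copies in the genome. Its value was -0.55 ± 0.37 on the log2 scale.

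The genes whose level followed that of Akt1 most closely were Bcl2l2, Col1a1, LOC361016, Ly6l and Bcl2l13, with Pearson correlations of log2 CPM over the 6 libraries of 0.991 or more. The correlation is a description over libraries that all genes share, and in Akt1 these libraries form separate clusters by group. Choosing genes by it therefore favours genes that fall as well, and the edgeR p-values of these genes do not allow for that choice. Col1a1, a collagen gene, had a log2 fold change of -2.31, Bcl2l13 of -0.80 and Bcl2l2, the gene of the anti-apoptotic protein BCL-W, of -0.57, and all fell (edgeR adjusted p = 1.62e-10, 1.70e-07 and 1.60e-06). The caution on a low variance given for Bcl2l11 also holds for Bcl2l13, whose CitH3+dsDNA counts had a variance 0.00228 times their mean. LOC361016 and Ly6l were not called, with edgeR adjusted p-values of 0.275 and 0.135, and Ly6l had at most 13 counts in a library and consecutive whole numbers (11, 13 and 12) as its control counts.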

How the data were processed

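The study made stranded mRNA libraries from 6 cultures, used TopHat to align them against Rnor6.0 and took reads per gene from HTSeq; per the labels' processing notes, TopHat2 was version 2.1.1 and Cufflinks 2.2.1 was also used. The authors deposited whole-number counts per gene symbol, not normalized. Antisense and overlapping genes may share reads, since the strand setting of the counting is not given in the sources used here. All 6 columns were used, and groups came from the sample titles. Of 22574 symbols, 5367 had no count. No genome of the build used was at hand, so no coordinates are given. Neighbouring genes were read from GRCr8.

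In R 4.3.3, edgeR 4.0.16 was used for the filter on low counts (filterByExpr), TMM scaling and a two-sided quasi-likelihood test, and p-values were adjusted by Benjamini-Hochberg over 12591 genes. CPM are counts per TMM-scaled library size, edgeR's usual unit. Standard errors of log2 fold changes were taken from the unshrunken coefficient over the root of F. AKT ratios used counts plus 0.5. The fits were tested on simulated data. Alternatives were other scalings, DESeq2 1.42.0 (the tool of the study), limma-voom (limma 3.58.1), no or a stricter count filter, robust dispersions, a replicate block, a prior count of 2 and each library left out.

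The 8 genes and all lists were chosen with earlier results of these data known. Named are the 8 genes, 10 fixed pathway genes, every called list gene, the highest and lowest of each list, and the 5 genes most correlated with Akt1. Other genes named were chosen after their values were seen. Some pathway genes are not reported here and are left out of the list counts.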

Additional observations from a re-analysis of the deposited data

How the results depend on the processing

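Direction and call were kept by Akt1, Lamtor1 and Bcl2l11 in all 15 alternatives, the log2 fold change of Akt1 lying between -1.47 and -1.33. Of 165 values of the 8 core genes and the 3 other called pathway genes, 152 kept their side of the threshold and 13 lost a call, on Rictor and Bcl6. Akt1 was then the 1 core gene called with upper-quartile scaling, limma-voom and the replicate block, where Rictor had log2 fold changes of 0.38, 0.39 and 0.39, and between 1 and 2 core genes were called with each library left out (Rictor 0.30 to 0.45). The cause was not tested. Core genes that were not called stayed so, while the sign turned for Mtor (-0.09 to 0.06) and Akt2 (-0.00419 to 0.03). Pathway genes called numbered 3 to 6 over all alternatives, against 5, with 3 under the replicate block and 3 to 5 with each library left out; Sesn3 was called in 7 alternatives. Over all genes 277 were called, and leaving out single libraries gave 164 to 357, the lowest counts being 164 without CitH3+dsDNA replicate 1 and 184 without Control replicate 1. The cause was not tested here either. The higher calls, 244, were 147 to 300 with each library left out (147 without CitH3+dsDNA replicate 1, 154 without Control replicate 1) and 182 to 326 in the other alternatives. The lower calls, 33, were 51 with DESeq2, 58 with no filter, 50 with robust dispersions, and 17 to 57 with each library left out (17 without CitH3+dsDNA replicate 1, 57 without Control replicate 3). With the replicate block, 212 genes were called, and correlations of deviations between libraries of the same number were -0.0458, 0.00452 and 0.0355. Those between libraries of different numbers lay between -0.0462 and 0.0420. No pairing by number was thus seen, although with 3 libraries per group this check cannot show that the cultures were unpaired. With each library left out, the shift lay between -1.51 and -1.34 for the ratio of Akt1 to Akt2. Of 120 values of the 8 other called genes named, 112 kept direction and side, and Smtn lost its call in 8. Counts in a library were at most 173 for Pik3cb, whose control counts had a variance 4.39 times their mean, 66 for Foxo1, 25 for Rps6 and 21 for Rragd, and 7 listed genes had too few counts to be tested. No alternative changes the counts themselves.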

Other observations

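The control counts of Bcl2l11 were 56, 55 and 54, those of Fbxo32 were 17, 16 and 18 and those of Ly6l were 11, 13 and 12, in each case 3 consecutive whole numbers. The CitH3+dsDNA counts of Pik3r3, 267, 268 and 266, were consecutive as well, and those of Bcl2l13, 1021, 1020 and 1023, lay within 3 counts of each other. Among genes with a control mean of 20 to 100 counts, 3 consecutive whole numbers occurred in 18 of 49 called genes (36.7%) and in 21 of 1973 genes not called (1.06%). Among genes with a CitH3+dsDNA mean of 20 to 100 counts, they occurred in those libraries in 11 of 34 called genes (32.4%) and in 23 of 1994 not called (1.15%). None of the 8 core genes had such a run in either group. All 8 had over 100 counts in every library, outside the range compared, so this absence says nothing about them. A small spread within a group itself favours a call, which can raise the share of such runs among called genes, and by how much was not tested. The cause of the runs was not tested, and the p-values of called genes do not allow for them. The variance of the counts of Akt1 was 31.2 times their mean in the CitH3+dsDNA libraries and 2.76 times their mean in controls.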
